A study of Mus musculus with 4 samples.

Results

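Cells of the mouse neural stem cell (NSC) line XN1, derived with the Wnt antagonist XAV939 (XAV), were compared with cells of the line KN1, derived without it. All cells of the normalized tables of both lines were taken, 3905 for XN1 and 3975 for KN1, which make 7880 of the 15255 cells of the series. Of the 15885 genes listed in either table, the 12820 listed in both were compared within classes of like gene length, 1213 were listed for XN1 only, and 1852 for KN1 only. Both lines came from 129/Sv epiblast stem cells (EpiSCs) in the same series of derivations, and both were grown without activin and with EGF and FGF2 at 10 ng/ml each. XN1 was given 10 µM XAV from supplier A, a lot that formed crystals in the medium, and KN1 was given neither XAV nor the agonist CHIR99021. The study holds that the crystals must have lowered the effective dose of XAV in XN1, so 10 µM is the amount added. The medium of the parental EpiSCs held XAV as well, so that KN1 cells descend from cells once grown with it. Each line was 1 culture and 1 BD Rhapsody library, in which single cells share microwells with barcoded beads that take up mRNA. Differences of medium, of line history, and of library therefore cannot be told apart, no test between the lines was possible, and every interval below is an exact 95% interval that covers counting error only.

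XAV blocks the tankyrases, enzymes that mark the scaffold protein Axin for degradation. With more Axin, the destruction complex removes more β-catenin, and fewer genes are switched on by the TCF and LEF factors that β-catenin joins at Wnt target genes. In the embryo, a Wnt signal that grows stronger toward the posterior end takes part in dividing the neural plate into forebrain, midbrain, hindbrain, and spinal cord, and the *Hox* genes record that position.

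The depth of the libraries differed in kind more than in amount. XN1 held 19271688 and KN1 27563145 recovered reads, with medians of 4637 and 5862 reads per cell. The median number of genes per cell was 2257 in XN1 and 833 in KN1, and remained 1808 against 765 when each cell was thinned to 3200 reads, which left out 776 XN1 and 579 KN1 cells. A captured gene had 2.14 reads on average in an XN1 cell and 7.39 in a KN1 cell, so a KN1 cell held many reads of few genes. The median gene was captured, that is had at least 1 read, in 13.3% of XN1 and 4.81% of KN1 cells, and captured shares below are read against these levels. Reads were not collapsed to molecules, so intervals on reads are too narrow, more so in KN1. As an example of precision at a low level, *Sp5* had 9.91 rpm (reads of the gene per 1000000 reads of the line) in XN1 from 191 reads (interval, 8.56 to 11.4). *Malat1*, a nuclear noncoding RNA, took a median of 0.411% of a cell's reads in XN1 and 2.72% in KN1. A total of 21 cell indices occurred in both tables, which does not show that cells were shared, since indices are drawn from the same set of beads.

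Gene length moved with the ratio of the lines. Genes that span over 100 kb took 14.4% of XN1 reads and 34.5% of KN1 reads. In 10 classes of like numbers of genes, the median log2 ratio of rpm of XN1 over KN1 was 0.61 in the class of genes up to 5450 bp and -1.77 in the class over 160753 bp, with the classes between in descending order but for the fourth. The class median was therefore subtracted from the log2 ratio of each gene. The result is called the length-class ratio here, and a gene was counted as higher or lower in XN1 where this ratio was past 1 or -1, a 2-fold difference from the genes of its class. What in the cells or the libraries the length trend comes from was not tested.

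**Figure D1:**
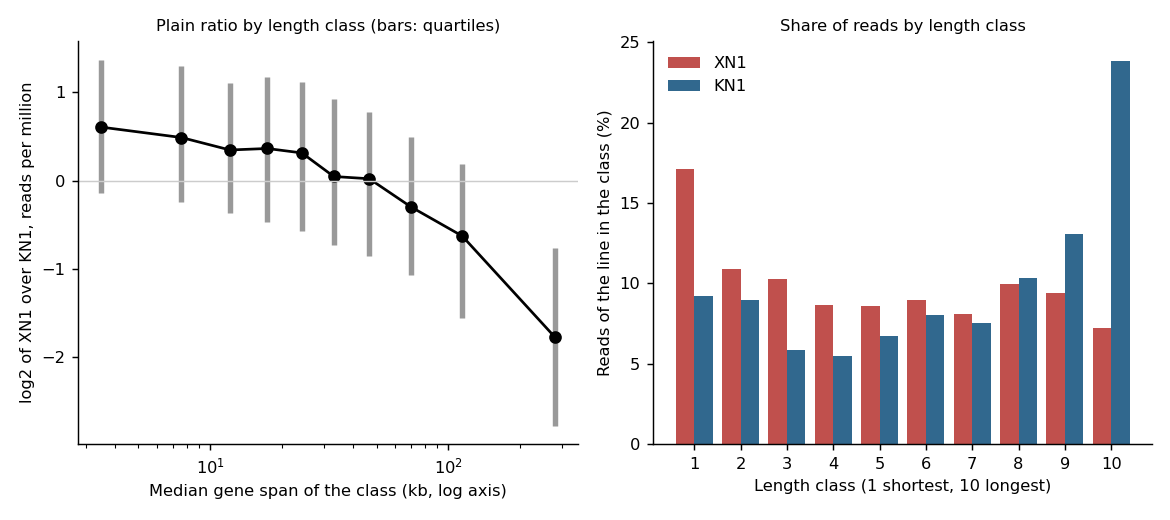
Left, the median (points) and quartiles (grey bars) of the log2 ratio of XN1 over KN1 in rpm, for 10 classes of gene span plotted at their median span in kb (log axis). Right, the percentage of the reads of each line that fell in each class. The median ratio went from 0.61 in the shortest class to -1.77 in the longest, and the longest class took 7.22% of XN1 and 23.9% of KN1 reads.

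Of the 12820 genes listed for both lines, 1352 were captured in a mean of under 1% of the cells of the 2 lines, 10 more had no known length, and 11458 were measured. Of the latter, 2378 (20.8%) were higher and 2336 (20.4%) were lower in XN1, and 742 (6.48%) and 690 (6.02%) passed 4-fold. The quartiles of the length-class ratio over all genes were -0.82 and 0.82. These percentages are the background against which the counts in each gene list are read. For counts of genes listed for 1 line only, the background is 1213 for XN1 and 1852 for KN1 of the 15885 genes listed in either table. Such genes have no length-class ratio, and a gene left out of a table as rare can still have reads in that line.

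The genes with the highest length-class ratios are given among those captured in at least 10% of the cells of either line. Such genes pass this filter through XN1, so shares of at least 10% there follow from the choice. They were captured in few KN1 cells. *Exph5*, which encodes a Rab27-binding protein of vesicle transport and lies on chromosome 9 from 53301670 to 53377514 (plus strand) of mm10, had 325 rpm in XN1 and 1.67 rpm in KN1. It was captured in 66.1% and 0.528% of cells, respectively, and its length-class ratio was 7.90. *Clic5*, an intracellular chloride channel-like protein that is tied to the actin cortex, had 422 rpm against 3.85 rpm, a length-class ratio of 7.40. In cells thinned to 3200 reads, *Exph5* was still captured in 54.7% and 0.383% and *Clic5* in 51.3% and 0.501%. XN4, derived with 10 µM XAV from supplier B, had 0.313 rpm of *Exph5* and 0.578 rpm of *Clic5*, so neither gene was shared by both lines grown with XAV. *Rhoj*, a small GTPase of the Cdc42 family, was captured in 58.5% of XN1 cells and 1.94% of KN1 cells, and had 123 rpm in XN4 beside 263 rpm in XN1. *Vegfc*, a growth factor of lymphatic vessels, was captured in 16.9% and 0.277%. The alarmin *Il33*, which astrocytes and oligodendrocytes make in the central nervous system (CNS), had 164 rpm in XN1 and 3.19 rpm in KN1. *Gria4*, a subunit of AMPA-type glutamate receptors, and *Tenm4*, a teneurin of the cell surface, are long genes, and were higher in XN1 against the length trend, with plain log2 ratios of 4.49 and 4.06. The lipid exporter *Abca1*, the lipid droplet coat protein *Plin3*, and the peroxisomal enzyme *Phyh* had length-class ratios of 5.78, 5.82, and 5.47. The other genes among the 15 highest were *Man1a*, *Crispld2*, *Anxa3*, *Colec12*, and *Sorl1*, at 5.26 to 6.21.

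**Figure D2:**
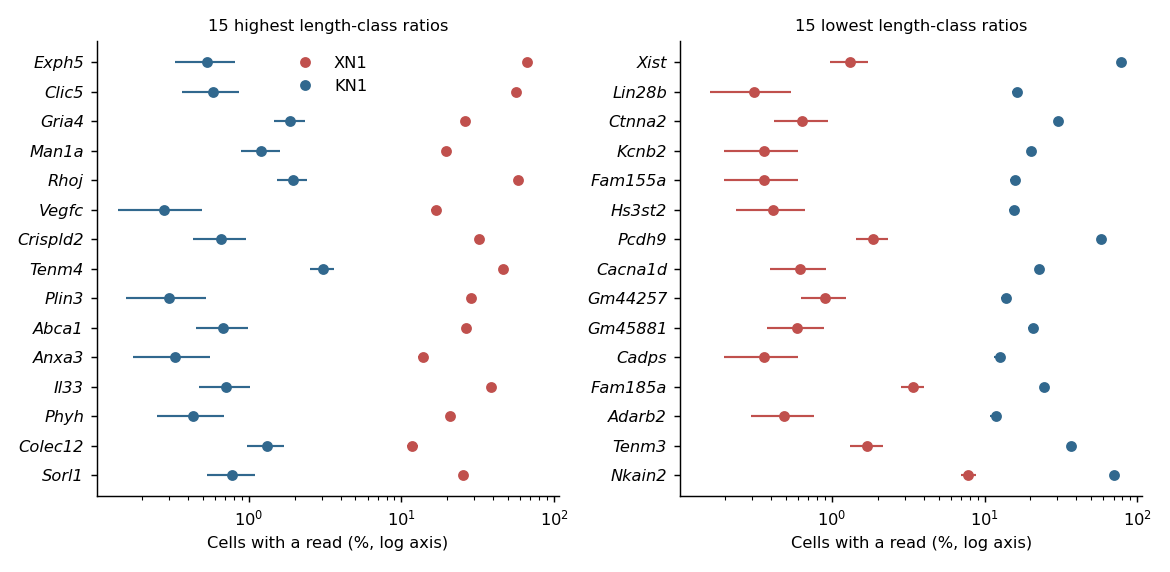
Percentage of cells with at least 1 read (log axis) in XN1 and KN1 for the 15 genes with the highest (left) and the 15 with the lowest (right) length-class ratio, with exact 95% binomial intervals as lines. Each of the 15 genes on the left was captured in at least 11.8% of XN1 cells and at most 3.04% of KN1 cells, and each on the right in at least 11.8% of KN1 cells and at most 7.84% of XN1 cells.

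The genes with the lowest length-class ratios under the same filter, which they pass through KN1, were led by *Xist* and *Lin28b*, described further below. *Ctnna2*, the neuronal α-catenin, had 1.30 rpm in XN1 and 590.0 rpm in KN1, a length-class ratio of -7.06. *Kcnb2* and *Cacna1d*, subunits of voltage-gated potassium and calcium channels, had ratios of -6.94 and -6.50. *Pcdh9*, a protocadherin, was captured in 58.1% of KN1 and 1.84% of XN1 cells. *Tenm3*, a teneurin like *Tenm4*, was captured in 37.0% of KN1 and 1.69% of XN1 cells, so the 2 paralogs stood at opposite ends. *Nkain2*, a partner of the sodium pump, was among the 10 most abundant transcripts of KN1 with 3434 rpm, and had 24.8 rpm in XN1. *Hs3st2*, *Fam155a*, *Cadps*, *Adarb2*, *Fam185a*, *Gm44257*, and *Gm45881* completed the 15, at ratios of -6.70, -6.85, -5.75, -5.60, -5.69, -6.35, and -5.85. Most of these 15 genes lie in the longest class, in which spans run from 160753 to 4434882 bp. The class median need not remove the length trend within it.

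The transcripts with the most reads also differed. *Gm42418*, a locus that takes up ribosomal RNA reads, led in XN1 with 15820.4 rpm and was second in KN1 with 21827 rpm, and *Malat1*, which led in KN1 with 32026 rpm, was also among the 10 most abundant of XN1 with 5297 rpm. Others among the 10 of XN1 were *Tmsb4x* (thymosin β, which binds free actin) at 14654 rpm against 724 rpm in KN1, *Eef1a1* at 8701 against 1730.1 rpm, *Actg1* at 7779 against 1573 rpm, and the iron store *Fth1* at 7220.2 against 366 rpm. In estimated captures per cell, a measure that does not use the number of reads per captured gene, the length-class ratios of *Tmsb4x* and *Fth1* were 1.496 and 1.45, against 3.73 and 3.70 in reads, and those of *Eef1a1* and *Actg1* were 0.85 and 0.76, under 2-fold. The measure cannot rise further once every cell holds a read. In cells thinned to 3200 reads, it gave 2.03 and 2.03 for *Tmsb4x* and *Fth1* and 1.17 and 1.14 for *Eef1a1* and *Actg1*, all past 2-fold. These genes have near-identical pseudogenes, between which reads may be split. The membrane protein *Gpm6b* had 4684 rpm in XN1 and 925 rpm in KN1. Among the 10 of KN1, the transcription factor *Npas3* had 4065 rpm against 277 rpm in XN1. *Ckb*, the brain creatine kinase, was among the 10 most abundant transcripts of KN1 and had more reads in XN1, 4172 against 3212 rpm, a length-class ratio of -0.23.

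Genes that mark early embryonic timing were mostly lower in XN1. LIN28 proteins bind the precursors of let-7 microRNAs and keep them from maturing, and let-7 in turn silences a set of growth and timing genes, among them *Lin28b*, *Hmga2*, and the *Igf2bp* genes. All 5 measured genes of this list were lower in XN1 (background 20.4%), with a median length-class ratio of -4.68. *Lin28b*, on chromosome 10 from 45376620 to 45486395 (minus strand), had 0.623 rpm in XN1 (exact 95% interval, 0.322 to 1.09) and 182 rpm in KN1 (177 to 187). It was captured in 0.307% of XN1 cells and 16.3% of KN1 cells. Its level in 4 equal groups of cells ordered by depth ran from 0.385 to 0.771 rpm in XN1. In KN1 it ran from 163 to 224 rpm. The level of *Lin28b* in CN4 was 1.18 rpm and in XN4 1.11 rpm, far under that of KN1 in both. The list as a whole did not share this order. Its members listed for XN1 or KN1 summed to 80.6 rpm in XN1, 1906 in KN1, 870 in CN4, and 446 in XN4. *Hmga2*, a chromatin protein of self-renewing progenitors, had 25.6 rpm in XN1 and 1011 rpm in KN1, and was captured in 7.63% and 54.6% of cells. The RNA-binding proteins *Igf2bp2* and *Igf2bp3* had 4.88 against 259.6 rpm and 35.6 against 330.3 rpm. *Nr6a1*, a nuclear receptor of the embryonic trunk, had 7.01 against 94.3 rpm. The length-class ratios of *Lin28b*, *Igf2bp2*, *Hmga2*, *Igf2bp3*, and *Nr6a1* were -7.56, -5.11, -4.68, -2.59, and -1.98. Against the 993 KN1 cells with the smallest *Malat1* share, the median of the list was -4.44, and the ratio of *Lin28b* was -7.27. *Trim71*, another let-7 target that encodes an RNA-silencing ubiquitin ligase, was listed for KN1 only, in 3.02% of cells, and had a read in 21 of the 14452 cells of the XN1 table of all reads. *Igf2bp1* was likewise listed for KN1 only, in 1.18% of cells. *Hmga1*, a paralog of *Hmga2*, and *Mycn* were listed for XN1 only, in 2.51% and 0.256% of cells, and *Arid3a* for KN1 only, in 0.403%, so the members listed once did not all share a direction. *Lin28a*, the paralog of *Lin28b*, was listed for neither line.

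The seed that let-7 uses to find these transcripts is shared by 11 of the 1679 mature mouse miRNAs in the RefSeq table. The miRNAs were not measured in these libraries, and 4 of them are shown to identify the seed (bases 2 to 8, in capitals).
let-7a-5p: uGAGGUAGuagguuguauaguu
let-7b-5p: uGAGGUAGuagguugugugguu
let-7i-5p: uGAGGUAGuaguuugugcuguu
miR-98-5p: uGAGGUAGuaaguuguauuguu

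The match to this seed, CTACCTC, stands in the 3′ UTR of each of the 5 measured timing genes, counted on the sense strand. *Nr6a1* had 8 matches, *Lin28b* and *Hmga2* had 4 each, and *Igf2bp2* and *Igf2bp3* had 1 each. The list holds known let-7 targets, so matches follow in part from its choice. Of members listed for XN1 only, *Hmga1* had 1 match and *Mycn* 0. For KN1 only, *Trim71* and *Igf2bp1* had 4 each and *Arid3a* 2. The first match after the stop codon of each of the 5 measured genes is shown with its GRCm38 coordinates, the match in capitals.
Lin28b, chr10:45381022-45381043, minus strand: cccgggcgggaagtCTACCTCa
Hmga2, chr10:120364224-120364245, minus strand: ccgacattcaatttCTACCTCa
Igf2bp2, chr16:22059473-22059494, minus strand: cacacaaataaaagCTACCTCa
Igf2bp3, chr6:49086787-49086808, minus strand: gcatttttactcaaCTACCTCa
Nr6a1, chr2:38727719-38727740, minus strand: agactgtggagcagCTACCTCc

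Matches were also counted over all measured genes with a 3′ UTR in the annotation. The 145 genes with 2 or more matches (1.31% of 11057) had a median length-class ratio of -0.28, the 1044 with 1 match 0.01, and the 9868 with none 0.03. Of the first group, 24.1% were lower in XN1, against 19.5% of all genes with a 3′ UTR, and 13.8% were higher, against 20.98% of all. Genes of the timing list, chosen with their values known, are part of this group. By 4-fold or more, 8.28% were lower, against 5.27% of all. The median 3′ UTR of this group was also longer, 3804 bases against 1299. The median of the timing list, by comparison, was -4.68.

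Genes of position along the body axis differed in both directions. Of 22 midbrain and forebrain factors, 4 were measured, of which 1 was higher and 1 was lower in XN1 (median -0.81), 5 were listed for XN1 only, and 3 for KN1 only. *En1*, a homeobox gene of the midbrain-hindbrain boundary, had 75.5 rpm in XN1 and 14.5 rpm in KN1, and was captured in 24.6% and 1.86% of cells (length-class ratio 1.89). *En2*, *Otx1*, and *Otx2*, which share this region or lie rostral to it, were listed for XN1 only, with 47.7, 40.9, and 25.5 rpm, as were *Six3* and *Barhl2* in 1.54% and 1.72% of cells. *Pax2*, *Pax5*, and *Lmx1a*, also genes of the midbrain or its boundary, were listed for KN1 only in 0.327%, 0.428%, and 0.704% of cells. They span 81.8, 186, and 160 kb and were not set against genes of like length. In the XN1 table of all reads, they had a read in 11, 17, and 21 of 14452 cells, so a difference between the lines is not shown. *Lhx2*, a forebrain factor, went the other way with 7.78 against 29.1 rpm (ratio -1.95).

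Among the *Hox* genes, the ratios of the *Hoxa* cluster descended from *Hoxa3* to *Hoxa7*, with *Hoxa2* as an exception. *Hoxa3* and *Hoxa4*, with anterior limits in the hindbrain, were higher in XN1, with 31.0 against 8.31 rpm and 25.4 against 7.76 rpm. *Hoxa5*, of the cervical cord, had 86.8 rpm in XN1 and 181 rpm in KN1. *Hoxa7*, of the thoracic level, had 12.1 against 237 rpm. The length-class ratios of these 4 genes were 1.88, 1.10, -1.67, and -4.77. *Hoxa2*, the most rostral of the measured genes, had 7.21 against 18.0 rpm and a ratio of -1.93. *Hoxa3* and *Hoxa5* overlap on the same strand, and their reads may not be fully separated. The *Hoxb* genes differed as a cluster, since *Hoxb2* to *Hoxb9* were listed for KN1 and none of these 8 genes for XN1. *Hoxb8* was captured in 15.8% of KN1 cells (121 rpm), the largest percentage of any gene listed for KN1 only, and in 6 of the 14452 XN1 cells of the table of all reads (0.0415%). *Hoxb3* was captured in 11.9% and *Hoxb6* in 9.94% of KN1 cells, against 4 and 5 of the 14452 XN1 cells. *Hoxb4*, *Hoxb5*, *Hoxb7*, and *Hoxb9* were captured in 6.62%, 6.42%, 3.52%, and 5.33% of KN1 cells, and *Hoxd4* and *Hoxd8*, of another cluster, in 1.11% and 2.16%. *Hoxd4* had a read in 0 of the 14452 XN1 cells, which allows a share of up to 0.0208%. In CN4, *Hoxb8* and *Hoxb3* had 343 and 112 rpm, and neither was listed for XN4.

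Partners of *Hox* proteins and factors of the dorsoventral axis were examined next. Of 9 measured genes for the TALE homeodomain proteins that bind DNA with *Hox* proteins, 6 were lower and 1 was higher, with a median length-class ratio of -1.07. Without length classes and centring, 5 were lower and none was higher, and in estimated captures per cell after thinning, 4 were lower and 1 was higher. *Meis1* had 42.2 against 399 rpm and *Meis2* 28.3 against 602 rpm. Along the dorsoventral axis, the *Iroquois* genes of the intermediate neural tube were higher in XN1, with 62.3 against 7.26 rpm of *Irx3* and 54.9 against 16.3 rpm of *Irx5*, while *Irx1* and *Irx2* were listed for XN1 only. *Olig1*, of the motor neuron and oligodendrocyte domain, was higher in XN1 with 929 against 223 rpm, and its neighbor *Olig2* had 890.2 against 310.4 rpm, a length-class ratio of 0.91, under 2-fold (1.52 without length classes and centring). *Sp8* and *Nkx6-1*, factors of the forebrain and of the ventral tube, were listed for KN1 only, in 14.1% and 4.05% of cells, and had reads in 2 and 1 of the 14452 XN1 cells.

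**Figure D3:**
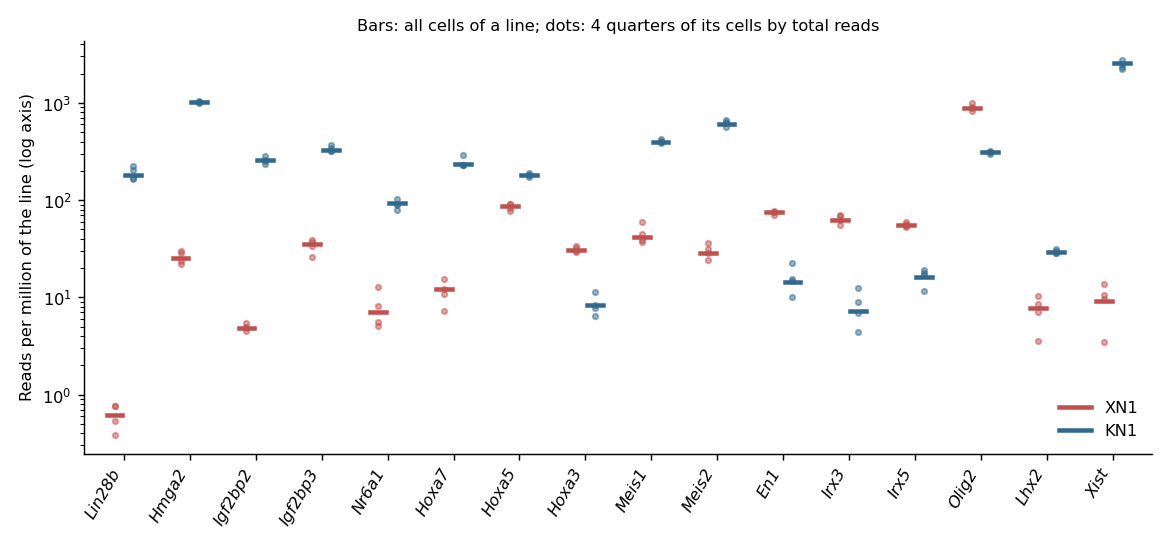
Levels in rpm (log axis) of developmental timing genes, genes of position, and *Xist* in XN1 and KN1. Bars are levels over all cells of a line, and dots are the levels in 4 equal groups of its cells ordered by total reads, which are not replicates. Over these groups, *Lin28b* ran from 0.385 to 0.771 rpm in XN1 and from 163 to 224 rpm in KN1.

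*Xist*, the noncoding RNA that coats and silences 1 X chromosome in female cells, had the lowest length-class ratio of the genes captured in at least 10% of either line. It lies on chromosome X from 103460366 to 103483254 (minus strand) and had 9.24 rpm in XN1 and 2555 rpm in KN1, a length-class ratio of -8.43. Of the 3905 XN1 cells, 51 had a read of *Xist*, and of the 3975 KN1 cells, 3137 had one. The XN1 reads were uneven over these cells, since 21 of them had a single read and 15 had 5 or more, up to 14. KN1 cells with a read had a median of 15 reads of *Xist*. CN4 and XN4 had 1591 and 1836 rpm, so XN1 stood apart from the other lines. *Ftx* and *Jpx*, noncoding RNAs of the X-inactivation center that favor *Xist*, were also lower in XN1, with 11.7 against 40.7 rpm and 6.90 against 26.3 rpm, and *Tsix*, the antisense of *Xist*, was listed for KN1 only in 0.679% of cells. The Y-linked gene *Ddx3y* was low in both lines at 2.08 and 1.23 rpm, and *Usp9y* and *Uty* were listed for KN1 only, in 0.453% and 0.478% of cells. *Gm47283*, the 1 measured gene that the annotation places on the Y chromosome, had 102 rpm in XN1 and 1807 rpm in KN1, a length-class ratio of -4.20. Whether its reads come from the Y chromosome was not tested. These genes other than *Xist*, and the X-linked genes below, were chosen after their values were seen. Reads of *Tsix* and *Xist* can be told apart only where the counting used strand, which the sources used here do not state for KN1.

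Genes of the X chromosome as a whole leaned toward XN1. The 396 X-linked genes measured had a median length-class ratio of 0.30, and 31.1% were higher and 18.9% lower in XN1, against 20.8% and 20.4% of all genes. The medians of the 19 autosomes ran from -0.27 to 0.20, all under that of the X chromosome, and its quartiles were -0.68 and 1.17. *Eif2s3x* and *Ddx3x*, housekeeping genes with a Y-linked copy, had 336 against 65.6 rpm and 499.9 against 119.6 rpm, and *Hprt* had 75.2 against 26.9 rpm. *Kdm5c* and *Kdm6a*, histone demethylase genes, had length-class ratios of 0.53 and 0.54. The difference was thus not the same for each gene, and the median was small beside the quartiles of all genes. With exon length in place of gene span, 1 autosome lay above the X chromosome (0.23 against 0.22).

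Wnt target genes were not lower as a list in XN1, grown with XAV at an effective dose that is not known. Of 12 measured target and feedback genes, 6 were higher and 2 were lower in XN1 (background 20.8% and 20.4%), with a median length-class ratio of 1.01. *Axin2*, a direct target that feeds back on the pathway in most tissues, had 20.9 rpm in XN1 (18.9 to 23.1) and 17.1 rpm in KN1 (15.5 to 18.7), a length-class ratio of 0.25. *Nkd1*, another feedback inhibitor, had 11.7 and 14.5 rpm. In CN4, grown with the agonist, *Axin2* and *Nkd1* had 94.9 and 47.5 rpm, and in XN4 3.01 and 3.44 rpm, so XN1 and KN1 stood near each other, between these lines. *Lef1* and *Tcf7*, which encode DNA-binding partners of β-catenin and are themselves targets, were higher in XN1, with 13.8 against 1.45 rpm and 25.3 against 5.26 rpm. *Ccnd1*, a G1 cyclin under Wnt and growth factor control, had 2499 against 279 rpm and was captured in 95.9% and 25.4% of cells. *Myc*, *Cd44*, and *Kremen1* were higher at ratios of 1.38, 2.62, and 2.76. *Lgr5*, the R-spondin receptor of Wnt-dependent stem cells, went the other way with 6.12 against 109 rpm (ratio -3.53), and so did *Bambi* at -1.05. The ubiquitin ligase *Znrf3*, which removes Wnt receptors, had 38.4 against 228 rpm, a difference that its length class largely shared (ratio -0.79).

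**Figure D4:**
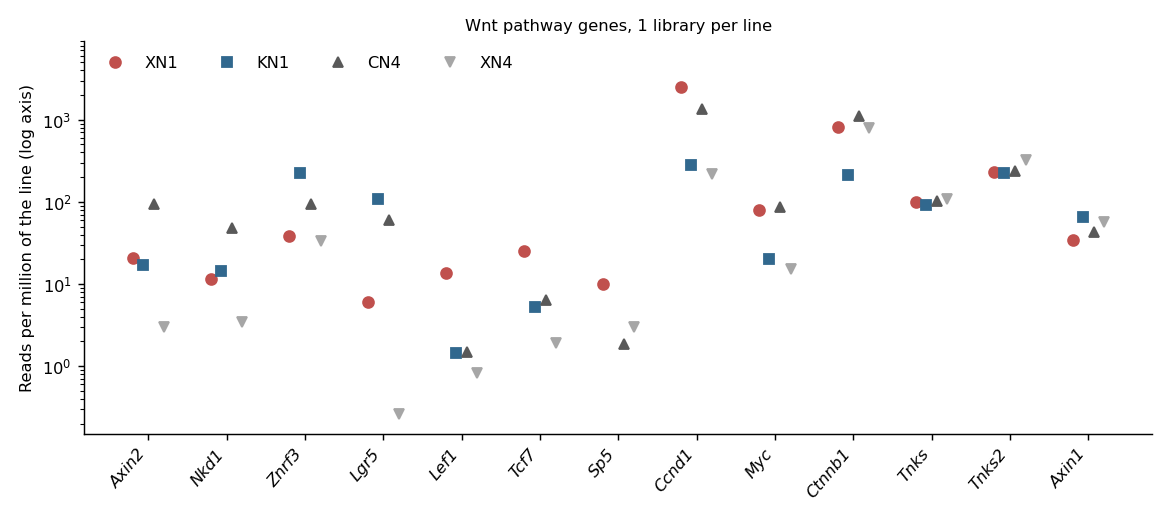
Levels in rpm (log axis) of Wnt target genes and of genes of the tankyrase and destruction complex in XN1, KN1, CN4 (2 µM CHIR99021), and XN4 (10 µM XAV, supplier B), 1 library each, where a missing symbol means that the gene was not listed. *Axin2* had 20.9 rpm in XN1, 17.1 in KN1, 94.9 in CN4, and 3.01 in XN4.

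Of the target list, *Sp5* was listed for XN1 only, and *T* and *Rnf43*, the latter in 0.252% of cells, for KN1 only. *Sp5*, a zinc finger gene of early neural and mesodermal tissue, was captured in 3.79% of XN1 cells (9.91 rpm), and *T* (Brachyury), which marks mesoderm and neuromesodermal precursors, in 1.51% of KN1 cells (10.3 rpm). Their promoters were searched for the TCF/LEF motif written as CTTTGAT or CTTTGAA on both strands. Of the 32851 RefSeq promoters, from 250 bases before to 50 after the start, 8.65% held 1, as did 4 of 21 promoters of 15 of the 25 genes of the Wnt target list. The promoters of the other 10 genes were not searched. Those of *Axin2*, *Nkd1*, *Lef1*, *Tcf7*, *Cd44*, and *Rnf43* held 0 matches, and beside *Sp5* and *T*, a promoter of *Dkk1* and of *Tnfrsf19* held 1. The promoters of *Sp5* and *T* are shown because these genes lay on opposite sides, with the motif in capitals, on GRCm38.p6.
Sp5, chr2:70474673-70474972, plus strand: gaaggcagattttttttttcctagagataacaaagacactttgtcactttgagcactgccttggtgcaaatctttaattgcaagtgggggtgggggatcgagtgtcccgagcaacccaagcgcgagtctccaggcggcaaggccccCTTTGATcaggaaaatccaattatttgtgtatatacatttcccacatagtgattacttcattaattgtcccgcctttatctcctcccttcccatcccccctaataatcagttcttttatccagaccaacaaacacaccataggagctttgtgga
T, chr17:8434173-8434472, plus strand: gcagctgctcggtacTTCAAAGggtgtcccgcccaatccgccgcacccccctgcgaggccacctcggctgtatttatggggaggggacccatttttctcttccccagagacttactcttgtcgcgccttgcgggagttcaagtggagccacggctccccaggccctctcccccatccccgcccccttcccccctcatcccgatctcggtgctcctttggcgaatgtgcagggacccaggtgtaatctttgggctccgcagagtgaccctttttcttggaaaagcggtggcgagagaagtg
Both held 1 match, and a match in these letters does not show binding.

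The genes of the complex on which XAV acts had a median ratio close to even. Of 21 measured genes for tankyrases, the destruction complex, and nuclear partners, 4 were higher and 1 was lower in XN1, with a median of 0.02. Without length classes and centring, 5 were higher and 5 were lower. The tankyrase genes *Tnks* and *Tnks2* had 98.7 against 91.5 rpm and 233 against 226 rpm. *Axin1*, the scaffold, had 34.4 against 66.3 rpm, a ratio of -0.97 just under 2-fold, and *Gsk3b*, the kinase, 485 against 455 rpm. *Ctnnb1*, which encodes β-catenin, was the most different of the list, with 823 against 210.0 rpm and a ratio of 1.92. XAV acts on proteins, which were not measured here. Also higher were the co-repressor *Tle1*, the inhibitor *Ctnnbip1*, and the kinase *Csnk1a1*, and the lower 1 was *Dvl1*.

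Of the genes for Wnt ligands, receptors, and secreted inhibitors, 7 of 20 were higher and 3 lower in XN1. The receptor *Fzd9* had 145 against 8.34 rpm and was captured in 38.4% and 1.21% of cells. *Wls*, needed for the secretion of Wnt proteins, had 613 against 352 rpm. The secreted antagonist *Sfrp1* was the lowest at 0.830 against 23.3 rpm, and the ligand *Wnt7a* was lower at 24.0 against 55.5 rpm. *Wnt5a*, a ligand that mostly acts without β-catenin, had 225 against 92.7 rpm, a ratio of 0.97 just under 2-fold.

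Both lines were fed EGF and FGF2, and genes that respond to these factors through the ERK pathway were compared. Of 19 measured genes, 7 were higher (36.8%, background 20.8%) and 4 lower (21.1%, background 20.4%), with a median of 0.20. The share of lower genes was thus near that of all genes. The feedback inhibitors *Spry4* and *Spred1* had 905 against 179 rpm and 629 against 153 rpm, and the ERK phosphatase *Dusp4* had 71.9 against 7.04 rpm. *Etv4*, an ETS factor, went the other way at a ratio of -2.31. *Dusp6* and *Etv5*, which follow FGF signals closely in the embryo, had ratios of 0.78 and 0.73, under 2-fold. The receptors differed among themselves, with *Fgfr1* near even at 218 and 233 rpm and *Fgfr3* at 2.08 against 74.4 rpm (ratio -5.53). *Erbb4*, the neuregulin receptor, had 91.1 against 1165 rpm (ratio -1.90), and *Egfr* followed its length class at -0.10.

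Notch genes were either lower in XN1 or under 2-fold. None of the 13 measured genes was higher and 5 were lower, with a median of -0.87. The target *Hes5*, which keeps neural progenitors from differentiating, had 10.3 against 56.2 rpm, and the glycosyltransferase *Lfng*, which tunes ligand choice, 53.6 against 188 rpm. *Hey1*, *Dll1*, and *Numb* were lower at ratios of -1.22, -1.62, and -1.50. *Hes1*, a second target, did not follow *Hes5*, with 157 and 101 rpm and a ratio of 0.04, and neither did the receptor *Notch1* at -0.07.

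BMP and TGF-β genes were divided, with 6 of 15 higher and 4 lower. The target *Id2* had 206 against 14.6 rpm, while *Id1* and *Id3* were under 2-fold at 0.53 and 0.85 (1.13 and 1.46 without length classes and centring). The receptors *Bmpr1b* and *Tgfbr1* were lower in XN1, at ratios of -4.35 and -2.24, and the antagonist *Fst* was lower at a ratio of -3.42.

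Both lines held reads of most genes that define NSCs, and glial genes differed gene by gene. *Sox2*, the factor that maintains neural progenitors, had 305 rpm in XN1 and 117 rpm in KN1, with a ratio of 0.78, and the intermediate filament *Nes* had 372 against 655 rpm (ratio -1.30). Of 15 measured NSC factors, 3 were higher (*Pou3f2*, *Prom1*, and *Vim*) and 2 lower (*Hes5* and *Nes*). These counts are 20% and 13.3%, near or under the 20.8% and 20.4% of all genes. Of the 17 on the list, 1 was listed for neither line. *Sox1* was listed for KN1 only, in 0.377% of cells, and had a read in 4 of the 14452 XN1 cells. Of 15 radial glia and astrocyte genes, 6 were higher and 3 lower. Among the higher ones, *Aldh1l1*, a folate enzyme used as an astrocyte marker, had 70.7 against 3.45 rpm, the glutamate transporter *Slc1a2* 127 against 9.58 rpm, and the apolipoproteins *Clu* and *Apoe* 46.4 against 1.89 rpm and 378 against 30.2 rpm. *S100b* and *Gfap* were listed for XN1 only, in 9.37% and 3.20% of cells. Among the lower ones were *Slc1a3*, a glutamate transporter of radial glia and astrocytes, and *Tnc*, a matrix protein of radial glia, with 922 against 2724 rpm and 535 against 2203 rpm. *Fabp7*, a lipid carrier of radial glia, had 1136 against 386 rpm (ratio 0.95), and *Ptprz1* and *Nfia* had ratios of 0.77 and 0.76, under 2-fold. Without length classes and centring, *Ptprz1* and *Nfia* turned to the other direction, both at -1.01.

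Neuronal genes were uneven. Of 7 measured neuron markers, *Dcx*, a microtubule protein of migrating neurons, was higher in XN1 (27.6 against 1.09 rpm), and *Elavl4*, *Rbfox3*, and *Snap25* were lower, with *Elavl4* at 0.882 against 87.7 rpm. *Tubb3*, the neuronal tubulin, was low in both at 4.77 and 4.68 rpm. Of 23 long synaptic and axonal genes, 13 were lower and 5 higher, with a median of -1.39. These genes have a median span of 1211 kb, far above the median of the longest class, 281.0 kb, so the class median need not remove the length trend from them. Against the 993 KN1 cells with the smallest *Malat1* share, their median was -0.76. Without length classes and centring it was -3.16, with 18 lower and 2 higher. The postsynaptic adhesion gene *Nlgn1* had 6.28 against 649 rpm and *Dscam* 6.54 against 401 rpm, whereas the equally long *Opcml* had 237 against 54.9 rpm.

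Genes of attachment and contraction were examined because the study tested the growth of the lines on laminin and on gelatin and with the kinase inhibitor Y27632. The targets of this inhibitor, *Rock1* and *Rock2*, had 212 against 539 rpm and 345 against 614 rpm, with ratios of -0.72 and -0.21. Of 33 measured genes of these kinases, actomyosin, and YAP targets, 12 were higher and 4 lower in XN1, with a median of 0.67. *Rhoc*, *Rhoa*, and *Rhob*, GTPases upstream of these kinases, had ratios of 2.35, 1.15, and 0.81. *Myh9*, the heavy chain of nonmuscle myosin, had 249 against 89.8 rpm, and *Cfl1*, which severs actin filaments, 5765 against 1316 rpm. The YAP targets *Ctgf* and *Cyr61* stood on opposite sides, with 93.8 against 14.6 rpm and 17.1 against 31.4 rpm. *Limk2*, a kinase downstream of *Rock1* and *Rock2*, was the lowest of the list at a ratio of -2.48.

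Of 19 measured integrin, laminin, and basement membrane genes, 9 were higher and 2 lower, with a median of 0.91. *Itgb1* and *Itga6*, which together form a laminin receptor, had 1581 against 343 rpm and 135 against 81.6 rpm. *Dag1*, the laminin receptor dystroglycan, had 711 against 189.9 rpm, and *Nid1*, which ties laminin to collagen IV, 134 against 4.86 rpm. *Lama4* and *Itgb5* were the lower ones at ratios of -2.34 and -1.35, and that of *Lama4* was -0.23 against the 993 KN1 cells with the smallest *Malat1* share. Collagen and connective tissue genes were higher for 7 of 10 and lower for none, with a median of 1.85. Without length classes and centring, 4 were higher and the median was 0.96. Of the rest, 5 were listed for XN1 only and 2 for KN1 only. *Sparc* had 2275 against 391 rpm and *Fn1* 87.0 against 14.8 rpm, and *Col1a2* was listed for XN1 only in 22.9% of cells, and *Col3a1* for KN1 only in 1.23%. *Col3a1* was rare in KN1 at 1.85 rpm, and had 111 reads in 33 of the 14452 cells of the XN1 table of all reads. The mesenchymal factor *Foxc1* was also higher at 70.2 against 6.17 rpm, while *Twist1* was listed for XN1 only in 2.79% of cells. The summed level of the mesenchymal factor list was 112 rpm in XN1 and 18.2 rpm in KN1, and its part in the collagen difference was not tested.

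Immune and reactive genes were more often higher than lower in XN1. Of 14 measured interferon and antigen presentation genes, 9 were higher and none lower, with a median of 1.70, while 5 more were listed for XN1 only and 1, *Ifit1*, for KN1 only, in 0.352% of cells. In estimated captures per cell after thinning, 9 were higher and 1 lower. *B2m*, the light chain of class I molecules, had 321 against 40.7 rpm, and the class I genes *H2-K1* and *H2-D1* had 120.4 against 15.8 rpm and 61.2 against 5.04 rpm. *Ifit2* and *Rsad2*, which interferon strongly induces, did not pass 2-fold, with ratios of -0.81 and -0.19. Of 10 genes of reactive glia, 6 were higher and 1, *S100a10*, was lower, with a median of 1.82, and 9 more were listed for XN1 only and none for KN1 only. Of the 15885 genes listed in either table, 1213 were listed for XN1 only and 1852 for KN1 only. *Cp*, a ferroxidase of astrocytes, had 1017 against 227 rpm, and *Hmox1*, which degrades heme, 101 against 6.75 rpm. Some of these reads came from few cells. The 1% of XN1 cells with the most reads of *Lcn2* (lipocalin, 137 rpm in 7.84% of cells) held 67.1% of them, compared with 45.1% for the chemokine *Cxcl1*, 38.6% for *Ccl2*, and 8.78% for *Unc93b1*, a carrier of Toll-like receptors. *Unc93b1* was captured in the largest percentage of XN1 cells of any gene listed for XN1 only, 38.9%.

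**Figure D5:**
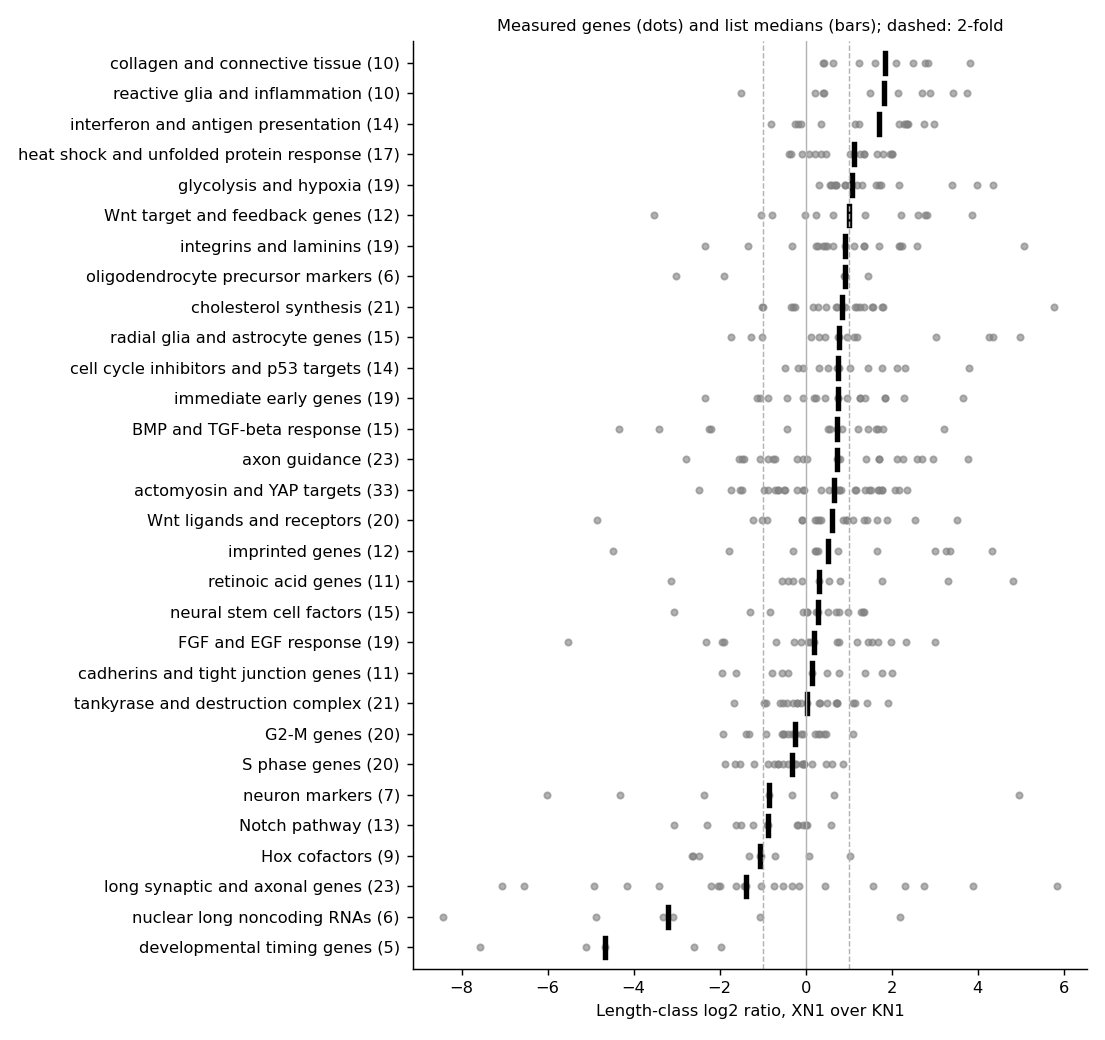
Length-class log2 ratios of XN1 over KN1 for the measured genes (dots) of each list with at least 5 of them, with list medians as black bars and the number of genes in parentheses. The dashed lines mark 2-fold, and medians run from -4.68 for developmental timing genes to 1.85 for collagen and connective tissue genes.

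Metabolic and stress genes leaned toward XN1 in each list. Of 19 glycolysis and hypoxia genes, 11 were higher and none lower, led by the hypoxia targets *Pdk1* (29.9 against 1.41 rpm) and *Bnip3* (119 against 5.88 rpm), with *Vegfa* at 156 against 37.0 rpm. *Ldha* and *Pgam1* were under 2-fold at ratios of 0.57 and 0.31. Of 21 genes of cholesterol synthesis and transport, 9 were higher and 1, *Fdps*, was lower, and *Hmgcs1* and *Sqle*, both under SREBP control, had 1222 against 272 rpm and 495 against 113 rpm. Of 17 heat shock and unfolded protein response genes, 10 were higher and none lower, including the endoplasmic reticulum chaperone *Hspa5* at 4289 against 762 rpm. These medians were 1.08, 0.84, and 1.13. In classes of length crossed with 3 classes of level they were 1.00, 0.57, and 0.85, and against the 993 KN1 cells with the smallest *Malat1* share 1.06, 0.76, and 0.88. The lines also differed in genes per cell, and the part of this in the lists was not tested.

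Cells with a read of *Mki67*, *Top2a*, or *Cdk1* made up 41.6% of XN1 (40.0% to 43.2%) and 50.0% of KN1 (48.4% to 51.5%), at the unequal numbers of genes per cell given above. Of 20 G2-M genes, 1 was higher and 3 lower, and of 20 S phase genes, none was higher and 4 were lower (background 20.8% and 20.4%). In estimated captures per cell after thinning, 11 of the G2-M genes and 6 of the S phase genes were lower and none was higher, so both counts depended on the measure of level. *Mki67* had 296 against 593 rpm (ratio -1.32), and *Top2a* had 480.4 against 658 rpm (ratio -0.50). Of 14 genes of a list of CDK inhibitors, p53 targets, and D cyclins, 6 were higher and none lower, among them the cyclin *Ccnd3* at a ratio of 1.03. *Gadd45a*, a stress-induced p53 target, had 208 against 9.76 rpm, *Ccng1* 469 against 76.4 rpm, and the CDK inhibitors *Cdkn2a* and *Cdkn2c* 162 against 25.5 rpm and 78.2 against 16.3 rpm. *Cdkn1a* and *Mdm2*, the best known p53 targets, were under 2-fold at ratios of 0.73 and -0.18. *Cdkn1a* had 1.11 without the cells with a cycling read and 0.14 in estimated captures per cell after thinning.

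Markers of cell types other than NSCs were examined by their summed levels. Of 10 epiblast markers, 7 were listed for neither line, *Nanog* and *Fgf5* among them, and the rest summed to 3.01 rpm in XN1 and 16.7 rpm in KN1. Of 11 blood and endothelial markers, 5 were listed for neither line, including the hemoglobin genes, and the rest summed to 8.77 and 27.6 rpm. Mesoderm markers, with 5 of 10 listed for neither line, summed to 3.68 and 13.7 rpm, of which *T* made up most in KN1. Neural crest markers summed to 53.1 and 14.7 rpm, mostly of *Ets1*, and *Foxd3* and *Snai2* were listed for neither line. Of 11 oligodendrocyte precursor markers, 6 were measured, of which 1 was higher (*Olig1*) and 2 were lower in XN1, with a median of 0.90. All listed members summed to 1954 rpm in XN1 and 791 rpm in KN1. *Olig1* and *Olig2*, also given above as factors of the dorsoventral axis, made up most of the sum in both lines, so it says little of the other markers. *Pdgfra*, a receptor of oligodendrocyte precursors and mesenchyme, was listed for XN1 only in 10.2% of cells, as was *Sox10* in 0.589%. *Bcas1*, a marker of young oligodendrocytes, had 21.5 against 212 rpm.

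Genes listed for a single line were mostly rare. Of the 1213 genes listed for XN1 only, 84 were captured in at least 5% of XN1 cells, and of the 1852 for KN1 only, 16 in at least 5% of KN1 cells, at the unequal numbers of genes per cell given above. Beside *Unc93b1*, those captured most often in XN1 were the protease inhibitor *A2m* (37.1%), *Cacng5*, *Srpx2*, *Pou3f4*, *Tslp*, *Tmc3*, *Col1a2*, *Thbs2*, and *Itpripl2*, in that order. *Pou3f4* is a POU factor of the neural tube, with 95.9 rpm, and *Tslp* is a cytokine of epithelia, with 150.5 rpm. In KN1, *Hoxb8* was followed by *Mir9-3hg* (14.8%), which hosts the neural miRNA miR-9, then *Gabrg1*, *Sp8*, *Hoxb3*, *Slc17a9*, *Hoxb6*, *G630016G05Rik*, *Hoxb4*, and *Pou2f2* (6.54%). The XN1 table of all reads, which leaves out no gene for rarity, held reads of *Mir9-3hg* in 19 and of *Gabrg1*, a GABA receptor subunit, in 14 of 14452 cells.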

How the data were processed

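Single cells of the lines XN1 and KN1, 1 BD Rhapsody whole transcriptome library each, were compared, with CN4 and XN4 given only side by side. Per the labels and the study's methods, the authors mapped reads to mm10 (GRCm38), removed ribosomal protein and mitochondrial genes, drew cells at random, and normalized with Seurat 4.3.0. The file headers name the BD Rhapsody pipeline with intronic reads counted for XN1, CN4, and XN4, and its settings for KN1 are not given in the sources used here. The deposited normalized tables hold natural log values, ln(1 + 10000 × reads of the gene / reads of the cell), without rare genes. The deposited XN1 table of all reads holds counts of reads, not of molecules, for 14452 cells, and was used for genes listed for KN1 only and as an alternative. The normalized values were turned back into reads, of which 100.0% were whole within 0.01.

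Reads were summed per line and given per 1000000 reads (rpm) with exact Poisson intervals, and shares of cells with exact binomial intervals (95%). The median log2 ratio of each of 10 classes of gene span was subtracted, and 2-fold past it was called. With 1 library a side no test was made, and differences of a line, a medium, and a library cannot be told apart. Gene spans and coordinates came from the GENCODE annotation of GRCm38, for 24 genes through an older symbol, and promoters and mature miRNAs from RefSeq (GRCm38.p6). Genes named were members of 42 lists (727 genes) captured in at least 5% of the cells of either line or defining a list, the 15 highest and 15 lowest ratios among genes captured in at least 10% of the cells of either line, the 10 with the most reads in each line, and the 10 captured most often among genes listed for 1 line only. Some genes that met these rules are not reported here. Genes of the X and Y chromosomes and rarer members that complete a count were chosen after their values were seen. The members and lists were chosen with earlier results of these data known. The steps were tested on simulated data. Alternatives were other length classes, filters, cells, and measures of level. Python 3.11.15, numpy 2.4.6, pandas 2.3.3, scipy 1.17.1, and matplotlib 3.10.9 were used.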

Additional observations from a re-analysis of the deposited data

How the results depend on the processing

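A total of 16 alternatives were computed, 15 of them planned and 1, the 993 KN1 cells whose *Malat1* share was at most 1.42%, added after seeing the data. The count of genes higher in XN1 was 2378 and lay between 2206 and 2698 in 15 alternatives, and was 1565 when the mean captured share had to be at least 5%, a filter that leaves fewer genes. The count of lower genes was 2336 and lay between 1582 and 2739. Of 164 genes that are named and passed 2-fold, all 164 had the same direction in each alternative and 131 stayed past 2-fold. Those that did not pass 2-fold in at least 1 alternative were *Actg1*, *Bambi*, *Ccnd3*, *Cfl1*, *Csnk1a1*, *Ctgf*, *Ctnnbip1*, *Cyr61*, *Eef1a1*, *Fdps*, *Ftx*, *Gm42418*, *Hey1*, *Hoxa4*, *Hprt*, *Hspa5*, *Itga6*, *Itgb5*, *Lama4*, *Malat1*, *Mki67*, *Myc*, *Nes*, *Numb*, *Olig1*, *Prom1*, *Rhoa*, *Robo1*, *Sema3a*, *Slc1a3*, *Tle1*, *Vim*, and *Wls*. Of 38 named genes under 2-fold, 23 passed it in at least 1 alternative, namely *Axin1*, *Cdkn1a*, *Dusp6*, *Egfr*, *Egr1*, *Fabp7*, *Gsk3b*, *Id1*, *Id3*, *Ifit2*, *Kdm6a*, *Nfia*, *Olig2*, *Ptprz1*, *Rhob*, *Robo2*, *Rock1*, *Sox2*, *Tnks*, *Top2a*, *Tubb3*, *Wnt5a*, and *Znrf3*. Some of these 38 genes changed direction over the alternatives, such as *Nfia* (-1.05 to 1.26), *Ptprz1* (-1.04 to 1.08), and *Egfr* (-1.91 to 0.54). *Malat1* fell under 2-fold only where KN1 cells were chosen by their *Malat1* share, which fixes the outcome. The cells without a read of *Mki67*, *Top2a*, or *Cdk1* hold no reads of these genes by choice. The causes were not tested. Of 35 list medians, 28 kept their direction in each alternative. Of the other 7, the median of midbrain and forebrain factors ran from -0.96 to 1.63, of cadherins and tight junction genes from -1.31 to 0.45, of the tankyrase list ran from -0.16 to 0.26, of G2-M genes from -2.36 to 0.08, of S phase genes from -2.12 to 0.03, of axon guidance from -1.05 to 0.84, and of retinoic acid genes from -0.27 to 0.64. No paired analysis was possible because each line had 1 library. No alternative can separate a line from its library, the unequal genes per cell limit what a captured share shows in KN1, and the unknown pipeline settings of KN1 touch each value.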

Other observations

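Imprinted genes, which are expressed from the maternal or the paternal copy alone, differed in both directions. Of 12 measured, 5 were higher and 2 were lower in XN1 (41.7% and 16.7%, background 20.8% and 20.4%). The paternally expressed *Plagl1*, a zinc finger gene, had 134 rpm in XN1 and 8.16 rpm in KN1, and *Peg10*, derived from a retrotransposon, had 416 against 41.0 rpm. *Igf2r*, the maternally expressed receptor that clears IGF2, had 175 against 22.3 rpm, while *Airn*, the noncoding RNA that silences its paternal copy and is counted with the nuclear RNAs and not with these 12, had 83.0 against 1283 rpm, so this pair stood on opposite sides. The genes overlap on opposite strands, and their reads can be told apart only where the counting used strand. *Grb10*, an adaptor that restrains growth signals, had 2.96 against 101 rpm, and *Mest* had 169 against 465 rpm. *Kcnq1ot1*, the silencing RNA of another imprinted cluster, and *Nnat* were listed for KN1 only in 3.75% and 1.43% of cells, and *Meg3* and *Mirg*, noncoding RNAs of the *Dlk1* cluster, for XN1 only in 3.97% and 0.359%. *Dlk1* and *Impact* were the other higher genes, at ratios of 3.36 and 1.66. Of 12 nuclear long noncoding RNAs, 6 were measured, of which 5 were lower in XN1, and 3 were listed for XN1 only and 2 for KN1 only. The 1 higher was *Neat1* at 40.8 against 7.18 rpm.

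Guidance genes followed no single direction, and as long genes they depended on the length classes: their median was 0.72 within classes and -1.01 without. Of 23 measured, 9 were higher and 5 were lower in XN1 (39.1% and 21.7%, background 20.8% and 20.4%). Without length classes and centring, 7 were higher and 12 were lower. The semaphorin *Sema5a* had 255 against 63.8 rpm and the netrin *Ntn1* had 515 against 225 rpm, whereas the repellent *Sema3a* had 75.8 against 759 rpm. *Slit2* was listed for KN1 only, in 5.16% of cells, and its receptors *Robo1* and *Robo2* had length-class ratios of 2.26 and -0.87. The enzymes *Aldh1a1* and *Aldh1a3*, which synthesize retinoic acid, stood on opposite sides, at ratios of 3.32 and -3.13. Of 19 immediate early genes, 7 were higher and 3 lower in XN1, and dissociation moves such genes in many tissues. *Ier3* had 121 against 6.24 rpm and *Fos* 105 against 19.1 rpm, while *Egr1* had a ratio of -0.07. Their part in the other lists was not tested.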
